A study of Mus musculus with 30 samples.

Results

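Livers of untreated mice in this series differed between runs of animal numbers in 5 probes, among them those of 2 cytochrome P450 genes of drug metabolism, and the run went together with the position of the array on its slide. The comparison here takes only control animals, and sets the 6 whose titles carry numbers 547 to 552 against the 10 whose titles carry 570, 572 to 575, 595, 596 and 598 to 600. The members were chosen by these numbers alone, and they are 16 of the 30 arrays of the series. Each array held liver RNA of 1 female C57BL/6 mouse from Taconic, 5 to 6 weeks old when acquired, labelled with Cy5, against a universal mouse reference RNA labelled with Cy3, with no dye swap. The labels give the treatment of the controls as none, and do not say whether they received the vehicle. They do not say what a run of numbers stands for, such as a delivery, an instillation day or a dissection day. The later controls are those of the second run (570 to 575, 5 animals) and the third run (595 to 600, 5 animals). The other 14 arrays held liver RNA of mice given 0.162 mg of Printex 90 carbon black nanoparticles into the trachea, and their numbers fall into 3 runs as well. They are used below only to set the same contrast beside that of the controls. The design text of the series speaks of 6 mice per group, fewer than the control arrays analysed here.

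All values are log2 ratios of liver over reference signal, so a difference of 1 is a doubling, and every difference is the first run minus the later runs. Tests were limma's moderated test with the slide as a random block and Benjamini-Hochberg adjustment over all 25114 probes measured, of which 1 probe per gene stands for each of 12855 named genes. A probe passed at an adjusted p under 0.05. All 6 first-run controls lay at array position 1 of their slide. Of the later controls only 572 and 574 did, and the other 8 lay at position 2, so run and position cannot be told apart in the other animals. Median signals over the 16 arrays reached at most 196 in Cy5 and 113 in Cy3. The share of probes that stood clear of the background in Cy5 was 43.3% to 79.5%, and array pairs correlated at 0.954 to 0.988. None of 7 measures of signal and array structure differed between first and later controls (exact permutation test, two-sided, lowest adjusted p = 0.889). Hepatocyte marker genes averaged 5.00 to 5.76 in first and 4.83 to 6.21 in later controls, well above the reference.

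Cyp2b10 and Cyp2c55 belong to a set of liver enzymes that the nuclear receptors CAR (Nr1i3) and PXR (Nr1i2) switch on when foreign chemicals, bile acids or steroids reach the hepatocyte. CAR waits in the cytoplasm and enters the nucleus on activation, and the induced cytochromes, transferases and transporters oxidise, conjugate and export the compound. Cyp2b10 is the classic readout of CAR activity in mouse liver and is low in the unstimulated organ. Interferon response genes work in another way: interferon binds its receptor, STAT and IRF factors enter the nucleus, and antiviral enzymes, guanylate-binding GTPases and antigen-processing genes rise together.

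Between first and later controls 5 probes passed the threshold (0.0199% of those tested), 4 higher and 1 lower in the first run. At an unadjusted p under 0.05 there were 1863 probes (7.42%). The 5 probes stood for Cyp2b10, Cyp2c55 and 3 transcripts to which no gene symbol was attached.

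Cyp2b10, a steroid and drug hydroxylase on chromosome 7, had log2 ratios from 4.74 to 5.79 with a median of 5.26 in the 6 first-run controls. In the 10 later controls they ran from 2.09 to 4.74 with a median of 3.05. The lowest first-run animal (552) and the highest later animal (570) both stood at 4.74 when rounded, and the first-run one was the higher, so all 6 first-run animals lay above every later one by a margin that was tiny for this pair. The mean was 5.28 ± 0.35 (SD, n = 6) against 3.20 ± 0.87 (SD, n = 10). The fitted difference was 1.94 ± 0.31 (SE), a 3.83-fold higher ratio, with adjusted p = 0.0302 by limma. On each of the 6 slides that held a first and a later control, the first-run animal was higher (318 of 12855 named genes). This follows from the ranges above, and on these slides the first-run array lay at position 1 and the later one at position 2. The means of the second and the third runs, 3.61 ± 1.04 and 2.80 ± 0.47 (SD, n = 5 each), differed from each other by 0.74 ± 0.35 (SE, adjusted p = 0.974 by limma), so the later runs were not told apart.

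The raw signals show how the ratio of Cyp2b10 was made up. The median Cy5 signal of its spots was 1817 to 6630 in first-run livers, with a median of 3786, and 366 to 2309 in later ones, with a median of 628. The reference signal was dim: well above background on 6 of 6 first-run arrays but only on 2 of 10 later arrays. Its value, and the ratio, then lean on the background correction. With Agilent's processed signals the difference was 0.33 (adjusted p = 0.911 by limma), whereas the liver channel alone gave 2.31 (adjusted p = 0.00332 by limma). The adjusted p was above 0.05 when any 1 of 9 animals was left out (547, 548, 549, 550, 551, 595, 598, 599 or 600), reaching 0.141, while the difference stayed between 1.80 and 2.17. With array position as an added term the difference was 2.44 (adjusted p = 0.106 by limma).

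Cyp2c55, a hydroxylase of arachidonic acid and of drugs, on chromosome 19, showed no overlap at all between the groups. First-run log2 ratios ran from -0.01 to 1.43 with a median of 0.49, and later ones from -1.66 to -0.63 with a median of -0.82. The means were 0.59 ± 0.60 (SD, n = 6) and -0.95 ± 0.35 (SD, n = 10), and the fitted difference was 1.57 ± 0.21 (SE), or 2.96-fold, with adjusted p = 0.0069 by limma. That the first-run animal was higher on 6 of 6 shared slides follows from the lack of overlap. Leaving out any 1 animal kept this call, with adjusted p no higher than 0.0466. With array position as a term the difference was 1.64 (adjusted p = 0.14 by limma), and with first-position arrays alone 1.56 (adjusted p = 0.235). Within the first run the animals with more Cyp2c55 also had more Cyp2b10: controls 547 and 550 were the highest in both.

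**Figure D1:**
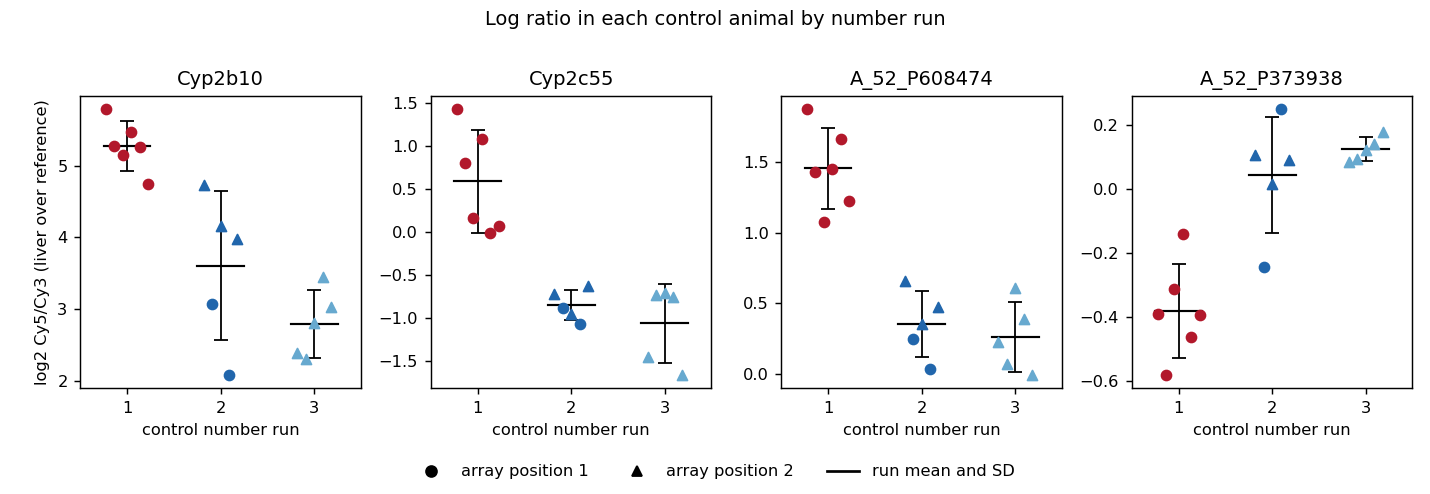
Log2 ratio of liver over reference signal (vertical axis) in each of the 16 control animals, by number run (horizontal axis), for Cyp2b10, Cyp2c55 and 2 unnamed probes; each point is 1 animal, circles are array position 1, triangles position 2, bars the run mean and SD. The 6 first-run animals lie between 4.74 and 5.79 for Cyp2b10 and above every later animal for Cyp2c55 and for A_52_P608474; for A_52_P373938 they lie lowest, with 1 later animal among them.

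The 80 bases just before the annotated start of both genes are shown because the promoter is where the 2 called genes could be set beside the rest of the receptor list (RefSeq, build GRCm38.p6, chr7:25897578-25897657 on the + strand for Cyp2b10, chr19:39006939-39007018 on the + strand for Cyp2c55). Neither holds AGGTCA, a common core of nuclear receptor binding sites, on either strand within 250 bases before the start. Sites further upstream were not searched. Of the 24 genes of the receptor list with a promoter in the table, 10 held it (41.7%), against 15.8% of 27025 genes. In Cyp2c39 (chr19:39347266-39347345, + strand) and Sult1e1 (chr5:87591682-87591761, - strand) the capitals mark AGGTCA or its reverse complement. They are shown as the 2 of those 10 genes with an unadjusted p under 0.05. The other 8, Cyp3a11 among them, did not reach it. On the whole list 10 of 26 genes did, so genes with AGGTCA did not stand out within it.
Cyp2b10: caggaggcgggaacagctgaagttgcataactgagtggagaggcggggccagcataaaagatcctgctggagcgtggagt
Cyp2c55: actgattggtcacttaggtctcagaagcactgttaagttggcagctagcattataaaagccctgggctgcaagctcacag
Cyp2c39: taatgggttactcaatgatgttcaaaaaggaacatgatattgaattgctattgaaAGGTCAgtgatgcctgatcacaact
Sult1e1: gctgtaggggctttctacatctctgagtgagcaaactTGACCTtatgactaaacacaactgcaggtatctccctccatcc

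Of 26 measured genes on the list of CAR and PXR targets, 2 passed, 10 were higher and none lower at an unadjusted p under 0.05, and 21 had a positive difference, with a median of 0.22. Over all named genes the matching shares were 0.0156% passed, 3.96% higher at that p and 49.6% positive, with a median of 0.00. No further member passed. Abcc3, which exports glucuronides into blood, had a difference of 0.46 ± 0.10 (SE, adjusted p = 0.228 by limma) and lay above every later animal. Cyp2c54 and Cyp2c39, cytochromes of the same cluster as Cyp2c55, had 1.06 and 0.72, both with adjusted p = 0.228. Sult1e1, which sulfates estrogens, had 0.95, and Por, the electron donor of all microsomal cytochromes, had 0.39. The best known PXR target, Cyp3a11, had a difference of 0.06, and the receptor genes Nr1i3 and Nr1i2 had 0.10 and -0.02. Of the other Cyp3a genes, Cyp3a13 had 0.50 (unadjusted p = 0.025), while Cyp3a16, Cyp3a25, Cyp3a41a and Cyp3a44 did not reach an unadjusted p under 0.05.

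The member genes of this list were also among the most variable in unexposed liver: 16 of 26 lay in the top 5% of named genes by SD over the 16 animals. The mean log2 ratio over the list ran from 4.48 to 5.06 in first-run controls and from 3.74 to 4.85 in later ones, so it overlapped. Control 574 gave the lowest value, 3.74, and is 1 of the 2 later controls at array position 1. With array position as an added term the list median was 0.67, and with first-position arrays alone (6 against controls 572 and 574) 0.63. Both values rest on those 2 animals. Over all named genes the median was 0.05 in each of these fits. The rise was not particular to this list. Genes of hepatocytes near the central vein went from 0.09 to 0.55 and 0.53, and bile acid genes from 0.11 to 0.29 and 0.34. Control 574 was the lowest animal for these lists too, at 2.47 and 3.25. Hepatocyte secretory genes had -0.08 and -0.22 in the same fits.

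**Figure D2:**
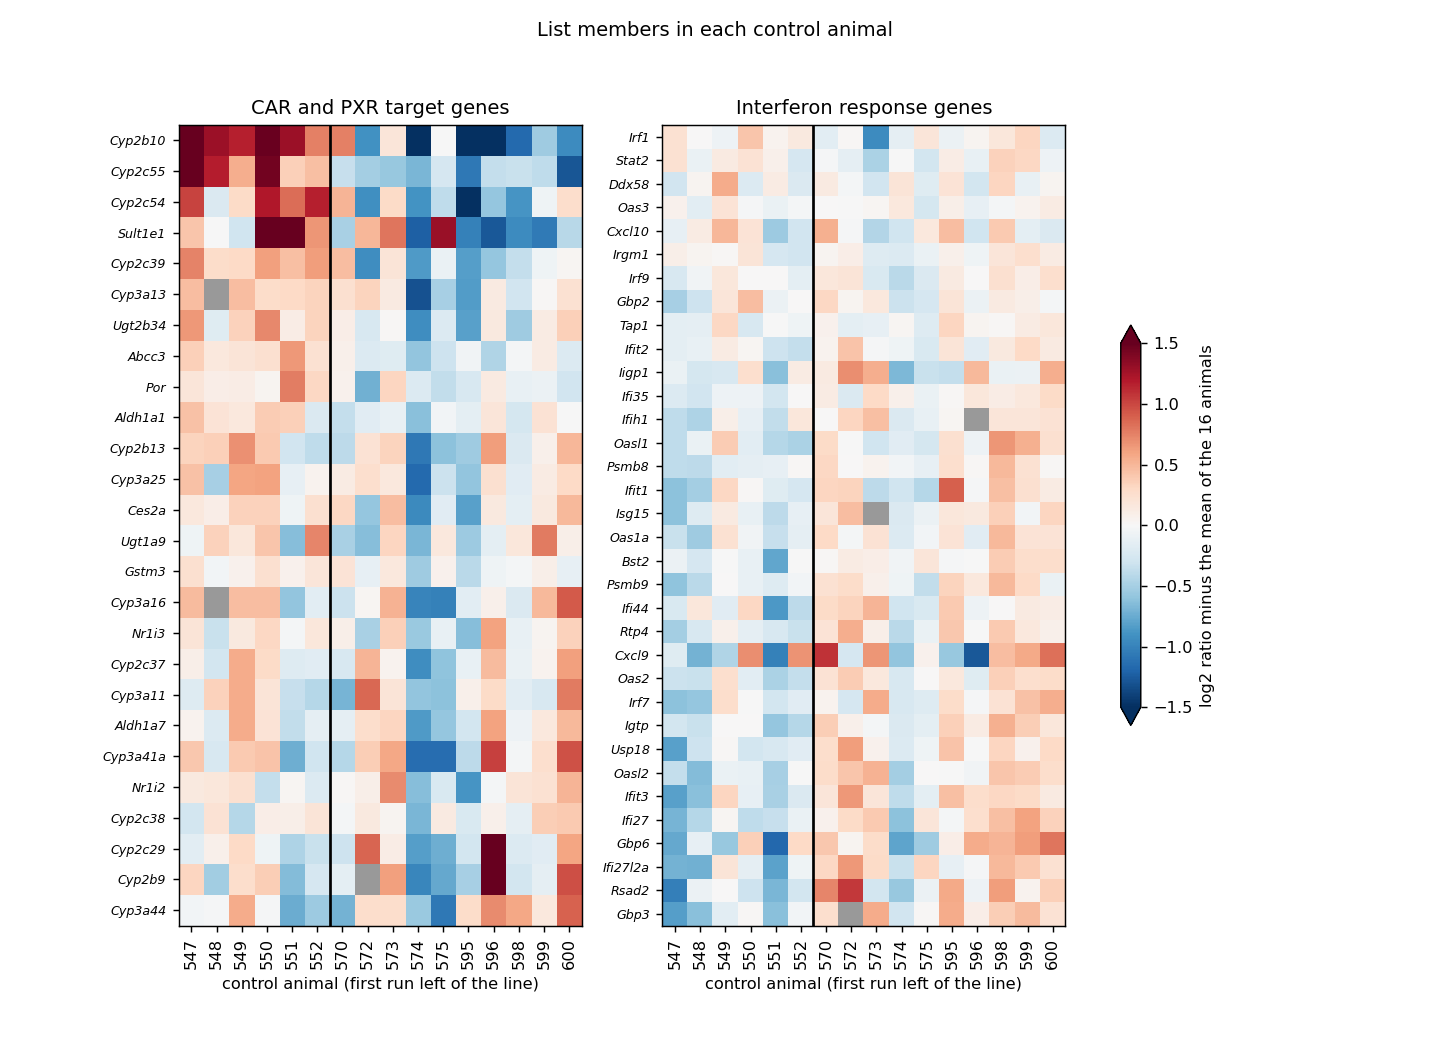
Log2 ratio of each measured member of the CAR and PXR list (26 genes, left) and 34 of the 35 genes of the interferon response list (right), minus the gene's mean over the 16 controls, in colour from -1.5 to 1.5; columns are control animals, first run left of the line, and grey is a missing value. Cyp2b10 and Cyp2c55 are red across the 6 first-run animals, the lower rows of the receptor list show no such split, control 574 is blue over most of it, and most interferon genes are blue in 547, 548 and 551.

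The 3 probes without a gene symbol were named by the array only through a transcript. A_52_P608474 (transcript BC027582) had the smallest p of all: 1.08 to 1.87 in first-run animals against -0.01 to 0.66 in later ones, a difference of 1.13 ± 0.12 (SE, adjusted p = 0.000347 by limma). Its groups did not overlap, and second and the third run means were 0.35 and 0.26. A_51_P234299 (AK052794) was higher by 0.57 ± 0.09 (SE, adjusted p = 0.0234), also without overlap. A_52_P373938 (AK080240) fell by 0.47, from a later mean of 0.08 ± 0.13 (SD, n = 10) to -0.38 ± 0.15 (SD, n = 6), with adjusted p = 0.0159 by limma, and here 1 later animal lay among the first-run values. The call on A_51_P234299 was lost without 547, 548, 550, 551, 573 or 599, and that on A_52_P373938 without 547, 548, 551 or 599. With the slide as a fixed block, which spends more of the 16 arrays on the 8 slides, none of the 5 probes passed by limma, and 1940 had an unadjusted p under 0.05; Cyp2b10 then had 1.65 and Cyp2c55 1.62. What the 3 transcripts encode is not given by the sources used here.

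Below the threshold, the named genes with the smallest p on the higher side were, among those reported here, Inf2, Tmem120a, Mafg, Ccl9, Tk1, Rbm47, Cyp39a1, Derl3 and Treh. Inf2, a formin that builds and severs actin filaments, had a difference of 0.51 ± 0.09 (SE, adjusted p = 0.0571 by limma), with first-run values from -0.72 to -0.17 and later ones from -1.27 to -0.79. Tmem120a, a membrane protein of the nuclear envelope, had 0.28 (adjusted p = 0.106). Neither gene overlapped between groups; of all named genes 6 lay above every later animal (0.0467%) and 1 below (0.00778%). Cyp39a1, a hydroxylase of 24-hydroxycholesterol, had 0.45, and the chemokine Ccl9 had 0.36. Treh, which splits trehalose, had 0.39 but was dim, above background in Cy5 on 4 of 10 later arrays. Derl3, part of the machinery that removes misfolded proteins from the endoplasmic reticulum, ran from -0.90 to 1.52 in first-run and from -1.47 to 0.29 in later controls. Its difference was 1.30 ± 0.28 (SE, adjusted p = 0.211 by limma), and control 552 set the low end: without it the difference was 1.58 (adjusted p = 0.0275).

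On the lower side the smallest p values were those of Pdhb, Ccnd1, Trim30a, Gbp3, Gpd2, Pdk1, Gvin1, Dhx58, Elovl5, Oga, Cars and Epsti1, none of which passed. Pdhb, a subunit of the pyruvate dehydrogenase that makes acetyl-CoA inside the mitochondrion, lay at 0.22 to 0.44 in first-run and 0.49 to 0.84 in later animals. Its difference was -0.33 ± 0.06 (SE, adjusted p = 0.067 by limma). It was the 1 named gene below every later control. Its kinase Pdk1, which switches the enzyme off, had -0.32. Ccnd1, the cyclin that carries cells from growth into DNA synthesis, had -0.72 ± 0.15 (SE, adjusted p = 0.181), and passed when control 549 (-0.85) or 572 (-0.78) was left out. Elovl5, which lengthens polyunsaturated fatty acids, had -0.49, and Gpd2, the mitochondrial glycerol phosphate dehydrogenase, -0.36. For Trim30a and Oga other probes of the gene lay closer to 0, with -0.13 for Trim30a and -0.02 to 0.05 for Oga. Of the rest, Trim30a, Gbp3, Gvin1, Dhx58 and Epsti1 are interferon-inducible.

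Interferon response genes lay lower in first-run livers as a group, although none passed. Of 35 measured, 23 were lower and none higher at an unadjusted p under 0.05, where 4.1% of all named genes were lower at that p. Only 3 had a positive difference, the other 32 a negative one (50.4% of all named genes), and the median was -0.33. Gbp3, a guanylate-binding GTPase, ran from 1.02 to 1.87 in first-run animals and from 1.57 to 2.42 in the 9 later animals that had a value, with a difference of -0.66 ± 0.14 (SE, adjusted p = 0.228 by limma). Usp18, which removes ISG15 from proteins, had -0.47 ± 0.12 (SE, adjusted p = 0.307), from -1.08 to -0.24 against -0.46 to 0.37. The antiviral radical enzyme Rsad2 had -0.63, Ifi27l2a -0.60, Ifit3 -0.51, the GTPase Igtp -0.44 and the transcription factor Irf7 -0.42. The transcription factor Irf1 had 0.23. The chemokine Cxcl9, induced by interferon gamma, had -0.38 with a wide spread, 2.42 to 4.13 against 2.17 to 4.52. On 6 of 6 shared slides the first-run animal was lower for 17 of the 35 genes (2.9% of all named genes).

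The mean over the interferon list was 0.64 to 1.09 in first-run and 0.77 to 1.34 in later controls, so the groups overlapped. The 3 lowest first-run animals were 551, 547 and 548, and the lowest later one was 574, at 0.77. With array position as a term the list median was -0.14, with 2 members lower at an unadjusted p under 0.05 (1.68% of named genes in that fit), and on first-position arrays alone it was -0.16. In bulk liver, fewer cells of a type and less RNA per cell cannot be told apart. Kupffer cell markers had a negative difference in 12 of 12 genes (50.4% of all named genes), 1 of them at an unadjusted p under 0.05 (4.1% of all named genes). Their median was -0.18, with a list mean of 2.97 to 3.90 in first-run and 2.85 to 3.95 in later controls. T and NK cell markers had a negative difference in 10 of 11 genes (50.4% of all named genes), with a list mean of -0.34 to 0.03 against -0.33 to 0.26. Of the 11, 3 were lower at an unadjusted p under 0.05 (4.1% of all named genes), Cd3d among these with -0.33. In the fit with array position the Kupffer list had 6 of 12 positive differences (7984 of 12855 named genes in that fit) and a median of 0.02. On first-position arrays its median was 0.05. The T and NK list then had medians of -0.10 and -0.03. The part of these cells in the interferon values was not tested.

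A pattern that interferon-activated factors bind, GAAA followed after 2 bases of any kind by another GAAA, was present on either strand within 250 bases before the start in 13 of the 27 interferon list genes with a promoter in the table (48.1%), against 3.46% of 27025 genes. Of these 13 genes 7 had an unadjusted p under 0.05, against 23 of the 35 on the whole list, so genes with the pattern did not stand out within it. The 3 below, named because they had the smallest p among the 13, show the match in capitals, on either strand (RefSeq, GRCm38.p6: Gbp3 at chr3:142559964-142560043, Igtp at chr11:58199476-58199555, Ifit3 at chr19:34583372-34583451, all + strand). In Gbp3 2 overlapping matches form 1 run of capitals, and Ifit3 holds 2 separate ones.
Gbp3: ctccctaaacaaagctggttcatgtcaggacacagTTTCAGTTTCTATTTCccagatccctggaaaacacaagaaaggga
Igtp: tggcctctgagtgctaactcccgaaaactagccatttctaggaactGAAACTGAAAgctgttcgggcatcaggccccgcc
Ifit3: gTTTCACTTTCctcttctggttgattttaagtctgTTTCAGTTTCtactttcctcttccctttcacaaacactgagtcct

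Genes of antigen presentation by MHC class II lay the same way. Of 8 measured, 4 were lower (4.1% of all named genes) and none higher at an unadjusted p under 0.05, with a median of -0.22. Of the 8, 0 were lower at that p with array position as a term, and the median was -0.14. Cd74, the invariant chain, had -0.30, H2-Aa -0.40 and H2-Ab1 -0.21, and the ranges of all 3 overlapped between groups.

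Genes of fatty acid synthesis, which insulin and carbohydrate feeding induce, included 8 of 25 that were lower at an unadjusted p under 0.05 (4.1% of all named genes) and none higher, with a median of -0.13. Fasn, the fatty acid synthase, ran from 0.59 to 2.71 in first-run and from 1.34 to 2.91 in later controls, a difference of -0.70 ± 0.23 (SE, adjusted p = 0.481 by limma). Scd1, which makes monounsaturated fatty acids, had -0.52, Lpin1, a phosphatidate phosphatase, -0.97, and Pnpla3, a lipase of the lipid droplet, -0.72. With array position as a term the list median was 0.02, no member was lower at that p, and 3 of 25 were higher (784 of 12855 named genes in that fit).

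Acute phase genes, which hepatocytes turn on under interleukin 6 and interleukin 1, varied from animal to animal. Of 37 measured, 7 were higher (3.96% of all named genes) and none lower at an unadjusted p under 0.05, with a median of 0.03. A fit with array position as a term also had 7 higher (784 of 12855 named genes in that fit), and a median of 0.20. In that fit the median of all named genes was 0.05. Lcn2, which binds bacterial siderophores, was 3.81 in control 551 and 2.24 in control 549 and 0.46 to 1.21 in the other 4 first-run animals, against -0.51 to 0.85 in later ones. Its difference was 1.49 ± 0.36 (SE, adjusted p = 0.246 by limma). Saa3, a serum amyloid made by macrophages and inflamed tissue, was 3.39 and 2.29 in the same 2 animals and at most 0.08 in the other 4, with a difference of 1.31 (adjusted p = 0.481). Without controls 549 and 551 the difference was 0.73 for Lcn2 and 0.29 for Saa3. Socs3, the feedback inhibitor of this pathway, had 0.39. Genes of the unfolded protein response had 4 of 23 higher (3.96% of all named genes) and none lower at that p, with a median of 0.05, and of 0.29 with array position as a term. They were Derl3, given above, Sdf2l1 with 0.43, Dnajc3 with 0.38 and Pdia6 with 0.21.

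**Figure D3:**
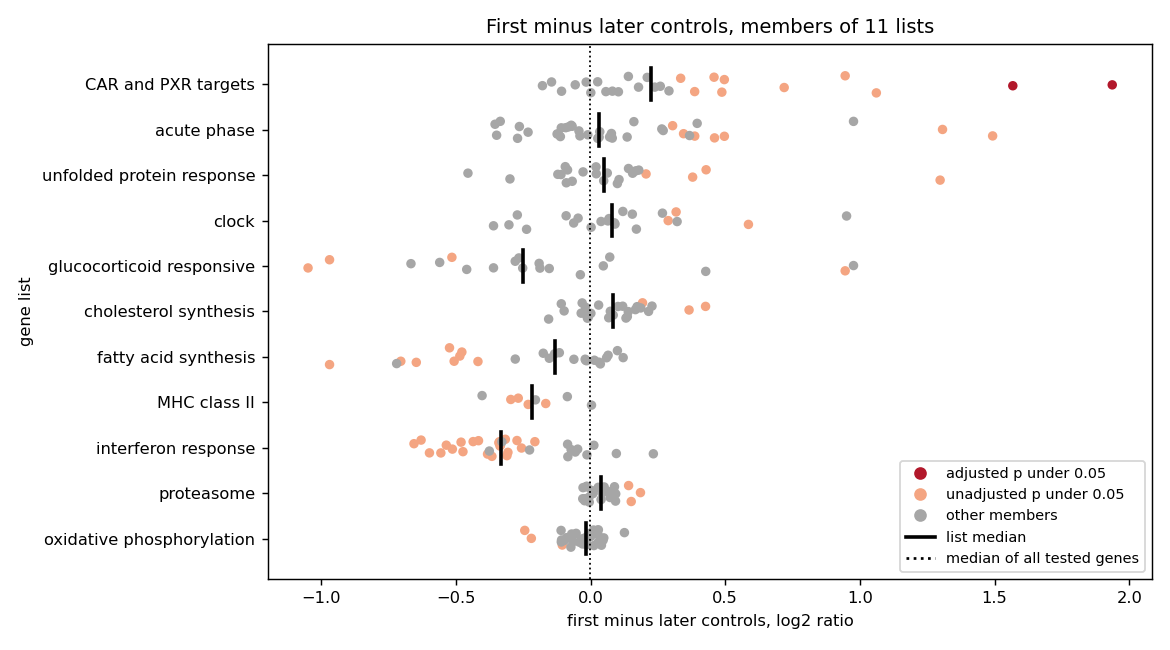
Difference between first-run and later controls in log2 ratio (horizontal axis) for each measured member of 11 gene lists (rows); dark red dots passed at an adjusted p under 0.05, light dots had an unadjusted p under 0.05, black bars are list medians and the dotted line is the median of all named genes. The dark dots are Cyp2b10 at 1.94 and Cyp2c55 at 1.57, and the interferon list lies mostly left of 0 around its median of -0.33.

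The same contrast was measured in the exposed mice, 4 of the first and 10 of the later runs. Exposed mice of the first run had Cyp2b10 at 5.96 ± 0.43 (SD, n = 4), and those of the second and the third runs at 3.64 ± 0.17 and 3.44 ± 0.42. The difference was 2.35 ± 0.28 (SE, adjusted p = 2.08e-05 by limma), against 1.97 in the controls of the same fit. For Cyp2c55 the exposed difference was 1.68 ± 0.24 (SE). The test of the difference between the 2 contrasts gave -0.38 ± 0.37 (SE, adjusted p = 0.736) for Cyp2b10 and -0.11 ± 0.32 (SE, adjusted p = 0.922) for Cyp2c55. Over all probes 1529 passed in exposed mice (6.09%) and 0 passed the test of the difference by limma, with 2497 (9.94%) at an unadjusted p under 0.05.

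By list, the exposed median was 0.24 for CAR and PXR targets, with 6 of 26 passing higher (1.64% of named genes), and -0.51 for interferon genes, with 20 of 35 passing lower (6.14% of named genes). Genes of cholesterol synthesis, with a median of 0.08 in controls and 3 of 27 higher at an unadjusted p under 0.05, had an exposed median of 0.50. Of all named genes 3.96% were higher at that p in controls, and with array position as a term the control median of this list was 0.33, or 0.25 on first-position arrays. The exposed arrays of the first run all lay at position 3 and those of the third run at position 4, while the second run held both (194 and 197 at position 3, 193, 195 and 196 at position 4). The exposed contrast was not fitted with a position term.

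**Figure D4:**
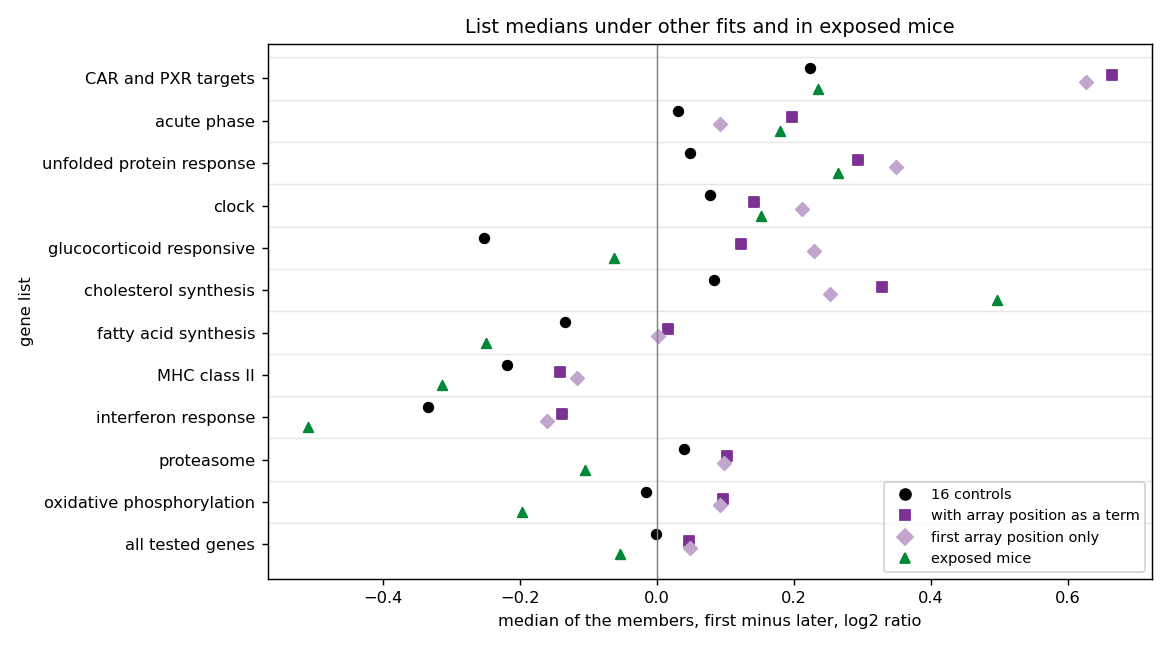
Median difference in log2 ratio, first minus later runs (horizontal axis), over the members of 11 gene lists and all named genes (rows), for the 16 controls, the controls with array position as a term, the controls at the first array position only, and the exposed mice. The receptor list lies right of 0 and the interferon list left of 0 in all 4, at 0.22, 0.67, 0.63 and 0.24 and at -0.33, -0.14, -0.16 and -0.51. The acute phase, unfolded protein response, clock and cholesterol synthesis lists also stay right of 0, and the MHC class II list left. The glucocorticoid, fatty acid synthesis, proteasome and oxidative phosphorylation lists and all named genes change side.

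Run by run, the first run differed from the second in 1 probe (0.00398%), A_52_P608474, and from the third in 6 probes (0.0239%). The second and the third runs differed in 0 probes by limma, with 1228 (4.89%) at an unadjusted p under 0.05. For Cyp2b10 the first run differed from the second by 1.56 (adjusted p = 0.208) and from the third by 2.30 (adjusted p = 0.0191). For Cyp2c55 the values were 1.47 (adjusted p = 0.121) and 1.67 (adjusted p = 0.0227). The reference RNA is the same on every array. In its channel 0 probes differed between first and later controls by limma, with 347 (1.38%) at an unadjusted p under 0.05.

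Apart from runs, some genes varied much more than others among the 16 untreated animals. The median SD of a named gene was 0.178, and the SD among 10 spots of 1 probe on 1 array was 0.0886. The latter leaves out differences between arrays. The most variable was Mt2, a metallothionein that binds zinc and responds to glucocorticoids, with an SD of 1.55 and a range from -2.73 in control 599 to 2.04 in control 551, or 27.3-fold. The next were Sult3a1 (SD 1.35), a sulfotransferase expressed more in females, Rgs16 (1.34), a brake on G protein signals that follows feeding and the clock, and Stc1 (1.33), a secreted glycoprotein above background on 9 of the 16 arrays. They were followed by Cyp2b10 and Cyp7a1 (1.25 each), the latter the enzyme that starts and limits bile acid synthesis. A1bg (1.22), Bcl6, a repressor under growth hormone control (1.19), Cyp26b1, which degrades retinoic acid (1.19), Saa3 (1.18), Noct and Dbp (1.15 each), Egr1, Angptl4 (1.08), Lcn2 (1.07) and Pnpla3 (1.04) came after these. Inppl1 (1.02), Olfr644 (1.01), Gadd45g (0.987) and Sult1e1 (0.984) closed the 20, and for Inppl1 the reference channel itself had an SD of 0.837. Stc1 was 2.95 to 3.55 in controls 551, 552, 570 and 575 and at most 1.63 in the others. Of these, 552 shared a slide with 570, and 551 with 575. Their arrays had 67.5% to 79.55% of probes clear of the background in Cy5, against at most 62.6% elsewhere. For Stc1, animal and array therefore cannot be told apart. Olfr644 was 2.89 to 3.31 in controls 552, 570 and 575, but 0.48 in 551, and at most 2.64 in the others. Of these 20 genes only Cyp2b10 passed between first and later controls: Rgs16 had a difference of -1.57 and A1bg of -1.13, neither of which passed, and Cyp7a1 ran from 3.52 to 5.96 in first-run and from 2.12 to 6.10 in later livers.

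**Figure D5:**
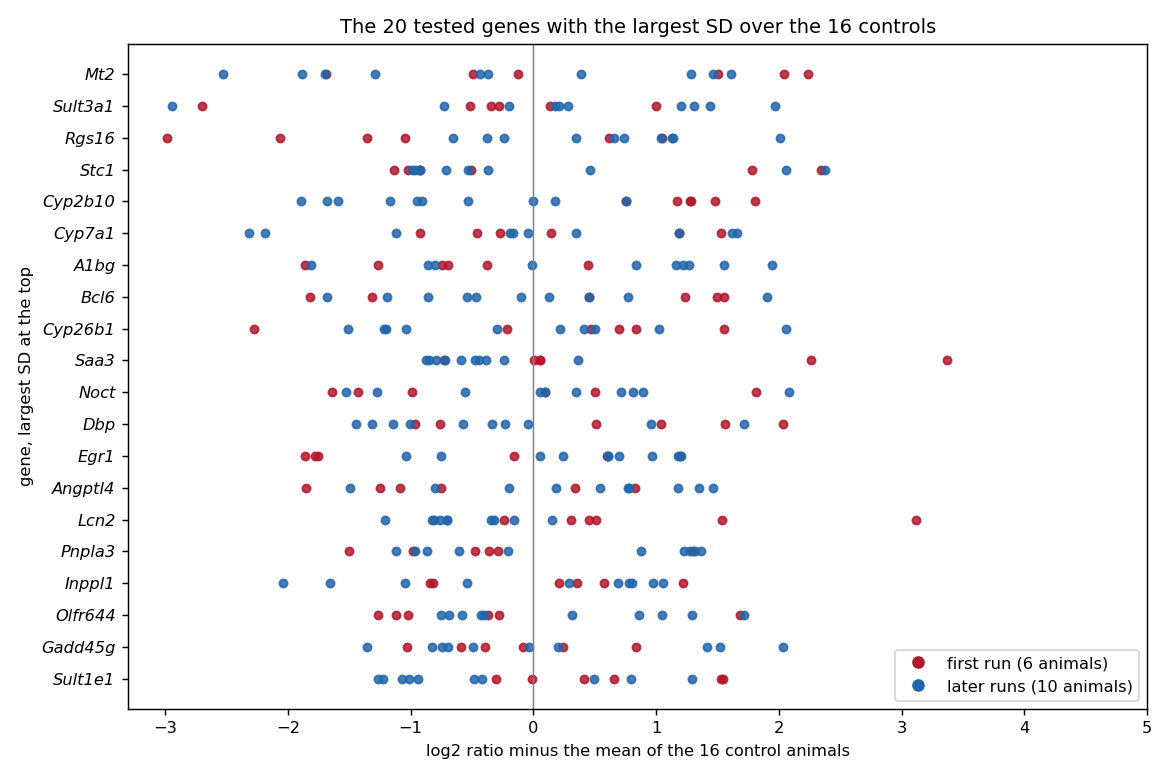
Log2 ratio of liver over reference signal minus the gene's mean over the 16 controls (horizontal axis) for the 20 named genes with the largest SD (rows, largest at the top); each dot is 1 animal, first-run animals red and later animals blue. Red and blue dots are mixed in most rows, Cyp2b10 has its 6 red dots at the right, and Saa3 and Lcn2 each have 2 red dots far to the right, those of controls 549 and 551.

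By group, high shares in the top 5% of SD were seen for sex-biased genes under growth hormone control (26 of 31), glucocorticoid-responsive genes (17 of 19), CAR and PXR targets (16 of 26), acute phase genes (21 of 37), complement and coagulation genes (19 of 35) and clock genes (11 of 22). Other hepatocyte products had similar shares, with 7 of 11 hepatocyte secretory genes, 11 of 19 apolipoproteins and 4 of 5 major urinary proteins. Of 28 proteasome, 31 cytosolic ribosome and 35 oxidative phosphorylation genes 0 lay there. The reference channel, with the same RNA on every array, also varied. Its median SD was 0.4802 for secretory genes, 0.4484 for apolipoproteins and 0.469 for major urinary proteins. The ratios of these lists had 0.5138, 0.4797 and 0.5997. The reference SD was 0.3505 and 0.3374 for the complement and acute phase lists. It was 0.2017 to 0.3007 for the clock, glucocorticoid, sex-biased and CAR and PXR lists. The part of the arrays in these SDs was not tested. Of the clock list, 3 of 22 were higher at an unadjusted p under 0.05 (3.96% of all named genes), and of the glucocorticoid list 1 of 19 was higher, near that share, and 3 lower (4.1% of all named genes). The median of the glucocorticoid list was -0.25, and 0.12 with array position as a term.

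Some genes moved together from animal to animal, and 5 pairs, chosen after their values were seen, were computed over the 16 controls with 100000 permutations. The p-values, adjusted over these 5 pairs only, do not allow for that choice. The permutations also took no account of run or slide, so the correlations are a description. Mt1 followed Mt2 with r = 0.958 and rho = 0.938 (permutation p = 1e-05 for both, the smallest the permutations can give, adjusted 3.33e-05 and 5e-05), and with r = 0.943 in the first and 0.969 in the later runs. Dbp, a clock output that peaks in the evening, ran against Arntl, the clock activator, with r = -0.864 and rho = -0.868 (permutation p = 2e-05 and 3e-05, adjusted 3.33e-05 and 7.5e-05), and with r = -0.903 in the first and -0.882 in the later runs. Cish and Socs2, both induced by growth hormone through STAT5, had r = 0.826 and rho = 0.797 (permutation p = 8e-05 and 0.0004, adjusted 8e-05 and 0.0005), with 0.669 and 0.905 within the groups. Without the 2 animals farthest from the median, r was 0.941 for the metallothioneins, -0.799 for Dbp and Arntl and 0.781 for Cish and Socs2. Lcn2 and Saa3 had r = 0.928 and rho = 0.712 (permutation p = 2e-05 and 0.00281, adjusted 3.33e-05 and 0.00281), but r = 0.636 without controls 549 and 551 and 0.408 in the later runs, so the high r rests on those 2 animals. For Cyp2b10 and Cyp2c55 the runs form separate clusters, and r was 0.826 over the 6 first-run animals and 0.369 over the 10 later ones.

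Control 574 had Dbp at 0.68 and Arntl at -0.84, where the other later controls had Dbp from -2.48 to -0.08 and Arntl from 0.47 to 1.92. Controls 549, 551 and 552 also had Dbp above 0, with 0.52 in 551 and 0.01 in 552. The labels used here give no hour of dissection.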

How the data were processed

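Liver RNA of 16 control and 14 exposed mice was measured on 2-colour Agilent arrays, 1 array per mouse, on 9 slides. The authors deposited 1 scanner file per array with foreground and background intensity per spot and flags for outlier spots. Per the file headers, these were extracted with Agilent Feature Extraction 10.7.3.1. Controls 552 and 570 and exposed mice 195, 197 and 215 had version 10.1.1.1. The series also holds a deposited table of log2 ratios, whose columns matched their own array best in 16 of 16 cases (r from 0.994 to 0.998) and whose medians lay between -0.0415 and -0.0214; the centring behind it is not given in the sources used here.

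Median signals were corrected with limma's normexp (offset 50, which shrinks ratios of dim probes) and loess within arrays, with control spots at weight 0 and outlier spots set to missing (R 4.3.3, limma 3.58.1). Spots of a probe were averaged. Probes well above background in Cy5 on at least 6 of 16 control arrays were kept; a gene was represented by its brightest probe. Of the 25114 probes 7146 had no gene symbol. The slide entered as a random block (correlation 0.234), and p-values were adjusted over all probes. The first and later controls share no animal number, so numbers do not pair them. Each array is a separate animal. The array number limits the precision. On simulated data for this comparison, run on 25114 probes, 96% of 100 probes shifted by 1 and 71% of 100 shifted by 0.5 were recovered. Of the unshifted probes 5 passed. The shifted probes were drawn at random, with normal noise and no position effect. These shares do not carry over to more variable genes, such as the CAR and PXR targets (median SD 0.486, against 0.178 over all named genes).

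The members, the gene lists and the tests were chosen with earlier results of these data known, so lists are described by counts and medians only. Named genes were the named genes past the threshold, those with the smallest p up to 12 a direction, the 20 with the largest SD, and Lcn2, Saa3, Dbp, Arntl, Lss and Usp18. Some items that these rules pick are not reported here. Other members of lists are examples chosen after their values were seen. Alternatives covered background, normalisation, filter, slide, position, array weights, single animals and software version. Promoters are the 250 bases before the start in RefSeq, GRCm38.p6.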

Additional observations from a re-analysis of the deposited data

Results flagged for a closer look

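Of 152 groups of a gene checked (76 genes, first and later controls), 13 held 1 animal far from the rest of its group, where the criterion flags about 1 in 20 groups by chance. The genes were chosen for a small p or a large SD, so the 2 rates are not comparable. They fell on 6 animals.

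In first-run controls, Marco, a scavenger receptor of macrophages, was 6.46 in control 549 against 4.29 in the next, and Ccl9 was 2.88 there. Control 552 stood apart 4 times: Socs2 at 3.22, Olfr644 at 3.28, Oga at -0.60 and Cars at -0.75. Its array had 71.9% of probes clear of the background in Cy5 and was extracted with the older software. Animal and array cannot be told apart here.

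In later controls, Fkbp5, a glucocorticoid-induced chaperone, was 3.52 in control 573 against 1.14 in the next animal, and Irf1 was -0.64 there. Control 572 had Ccnd1 at -0.76 and Socs3 at -1.72. Control 574 had Arntl at -0.84 and Trim30a at 0.35. Saa3 was 0.39 in control 570.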

How the results depend on the processing

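The count of 5 probes moved with many choices. It was 8 with the deposited value table, 3 with probes above background on all 16 controls, 0 with the slide as a fixed block (1940 at an unadjusted p under 0.05), 15 with array position as a term (1 shared with the 5), 10 with array weights, 2 without slides lacking a first-run control, 32 on first-position arrays (2 shared), 16 with the liver channel alone and 10 over 30 arrays. The position 1, 549-and-551 and liver-channel settings were chosen after seeing the data. Leaving out 1 animal gave 2 to 8: 2 without 547, 548, 551 or 599, 3 without 550 and 8 without 549. Cyp2b10 lost its call in 16 of 36 alternatives and Cyp2c55 in 4 of 36, among them the fixed slide block (1.65 and 1.62) and the position term (2.44 and 1.64), and neither changed sign. The median of the CAR and PXR list was 0.67 with the position term and 0.63 on first-position arrays, and that of the interferon list -0.14 with the term. Run counts over 30 arrays were 15, 10 and 5 for run 1 against 2, run 1 against 3 and run 2 against 3, and without single animals they ran from 0 to 3, 0 to 12 and 0 to 2. The exposed count was 405 with the slide fixed. Arntl turned from -0.30 to 0.43 with the position term, 0.47 on first-position arrays and 0.15 without 549 and 551, and Lss, a cholesterol synthesis enzyme, from 0.12 to -0.20 without 549 and 551 and to between -0.042 (without 549) and 0.20 (without 600) without single animals. The causes were not tested. No analysis paired by animal was possible because the first and later controls share no replicate number. Pairing by slide, possible on 6 slides, is the fixed slide block above, in which 0 probes passed.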
